A study of Mus musculus with 21 samples.

Results

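The genes described here carry fatty acids into the cell, release them from lipids, activate them, store them in droplets and burn them in mitochondria, together with the nuclear receptors best known for controlling such genes. There are 34 of them among the 47069 genes of the deposited count table, found by exact match of the gene name. They comprise 8 for uptake, intracellular carriage and lipases, 4 acyl-CoA synthetases, 3 of the carnitine shuttle, 9 enzymes of beta-oxidation, 3 of the electron transfer flavoprotein system, 4 of the lipid droplet and 3 receptors. The count table covers 21 RNA-seq libraries of mouse bone-marrow-derived macrophages, which are macrophages grown from marrow precursors, here for 5 days in medium conditioned with the growth factor M-CSF. The cells were then kept for 36 h with interleukin-33 (IL-33), interleukin-4 (IL-4) or no added cytokine. The design asks how each cytokine changes the macrophages and whether the response to IL-33 needs its receptor ST2 (gene Il1rl1) and the transcription factor Gata3.

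The 7 groups had 3 libraries each, all from mice on the C57BL/6 strain. Cells labelled C57BL/6:Cx3cr1CRExGata3fl/fl, called floxed-labelled below, were given IL-33 or no cytokine; in these mice the Cx3cr1 promoter drives Cre, so that any deletion of the floxed Gata3 depends on Cx3cr1 activity in the cell or its precursors. Cells labelled C57BL/6:ST2-/-, called ST2KO-labelled below, were given IL-33 or no cytokine. Wild-type (WT) cells were given IL-33, IL-4 or no cytokine. The age and sex of the mice are not among the labels used here, and no Cre-only control group was analysed. Nothing in the labels says whether the 3 libraries of a group came from separate mice; a p-value here therefore reflects how these libraries scatter, and that scatter may be technical.

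A macrophage takes up long-chain fatty acids through the scavenger receptor CD36 and fatty acid transport proteins, or frees them from lipoproteins with lipoprotein lipase outside the cell and from engulfed lipids with lysosomal acid lipase inside it. Acyl-CoA synthetases join the fatty acid to coenzyme A, the carnitine shuttle moves it into the mitochondrion, and beta-oxidation shortens it in repeated cycles whose electrons pass through the electron transfer flavoprotein to the respiratory chain. Excess fatty acid is stored as triglyceride in droplets coated with perilipins. PPAR-gamma, a receptor activated by fatty acids that binds DNA with its partner RXR, is known to raise lipid uptake and storage genes in macrophages. IL-4, which signals through the transcription factor STAT6, is known to raise both PPAR-gamma and fatty acid oxidation in these cells. IL-33 signals through ST2 to NF-kB.

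Of the 34 genes, 29 had an entry in the RefSeq promoter table (build GRCm38.p6), each covering 250 bases before to 50 bases after an annotated start; Fabp4, Fabp5, Angptl4, Lpl and Acaa2 had none. The windows of Cd36, Pparg and Hadhb are shown. IL-4 moved Cd36 most and IL-33 moved Pparg most among the genes with an entry, and Hadhb shares its start region with Hadha. No test of expression below used these windows. Each is written 5′ to 3′ on the gene's own strand. In the Cd36 window (chr5:17835847-17836146, minus strand) the capitals mark the only match among the member promoters to a STAT6-type palindrome. This is the only RefSeq window of Cd36 and lies inside the annotated gene (17781690 to 17888801). The region at the upstream end of the gene was not searched. In the first of the 3 RefSeq windows of Pparg (chr6:115360894-115361193, plus strand) the capitals mark matches to a short NF-kB pattern, some of which overlap. In the Hadhb window (chr5:30155003-30155302, plus strand) the capitals mark the bases that also lie in the window of Hadha on the other strand.
Cd36: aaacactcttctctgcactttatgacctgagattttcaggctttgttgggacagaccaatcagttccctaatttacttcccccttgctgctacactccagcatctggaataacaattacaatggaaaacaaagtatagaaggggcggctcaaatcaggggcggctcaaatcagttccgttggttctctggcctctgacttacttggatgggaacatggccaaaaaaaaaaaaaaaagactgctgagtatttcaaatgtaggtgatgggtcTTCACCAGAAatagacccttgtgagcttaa
Pparg: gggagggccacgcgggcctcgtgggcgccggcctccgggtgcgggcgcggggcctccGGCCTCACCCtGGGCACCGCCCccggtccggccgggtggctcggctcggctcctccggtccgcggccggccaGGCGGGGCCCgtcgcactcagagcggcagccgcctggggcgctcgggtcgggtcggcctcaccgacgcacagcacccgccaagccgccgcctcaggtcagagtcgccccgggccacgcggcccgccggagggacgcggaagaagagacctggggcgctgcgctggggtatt
Hadhb: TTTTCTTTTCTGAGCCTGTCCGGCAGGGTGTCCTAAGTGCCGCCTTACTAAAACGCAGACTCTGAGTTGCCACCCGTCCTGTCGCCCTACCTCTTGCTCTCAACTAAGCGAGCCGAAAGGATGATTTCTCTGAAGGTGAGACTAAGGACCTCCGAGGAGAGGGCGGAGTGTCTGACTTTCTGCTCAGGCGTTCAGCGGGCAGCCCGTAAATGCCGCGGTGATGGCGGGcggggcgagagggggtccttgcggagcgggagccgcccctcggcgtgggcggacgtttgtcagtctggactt

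The patterns were searched on both strands of all 32851 RefSeq promoter windows of the mouse. The STAT6 palindrome, TTC and GAA with any 4 bases between them, was in 6.95% of all windows and in 1 of the 36 member windows, that of Cd36, as TTCACCAGAA at bases 271 to 280, downstream of the start. The NF-kB pattern, GGG and CC with any 5 bases between them, was in 50.8% of all windows and in 28 of the 36 member windows, belonging to 25 genes. Cd36 (GGGACAGACC at bases 48 to 57) and Hadhb are among these genes, and their NF-kB matches are not in capitals above. The PPAR-RXR direct repeat, AGGNCA given a second time after 1 base of any kind, was in 0.381% of all windows and in 0 member windows, which says only that these letters are not in these windows. Hadha and Hadhb, the alpha and beta subunits of the mitochondrial trifunctional protein, start on opposite strands with 272 bases between their RefSeq starts (30154980 and 30155253 on chromosome 5), and 228 bases of their windows coincide. A match is a description of the letters, not a site of binding.

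The libraries held 32626469 to 48743646 counts assigned to genes, and 14473 genes, all 34 members among them, passed the filter on low counts. Gene-level counts do not check either deletion. Il1rl1 was at 14.5 to 20.4 CPM (counts scaled to library size) in the ST2KO-labelled cells without cytokine and at 14.6 to 17.3 CPM in WT cells without cytokine. Gata3 had at most 18 counts in any library, the highest being an untreated floxed-labelled one. Over its 3 libraries each, it summed to 37 counts in floxed-labelled cells with IL-33 and 32 without cytokine. The sums were 17 to 23 in the WT groups and 4 in either ST2KO-labelled group. Xist, transcribed from the inactive X chromosome, was at 277 to 376 CPM in the 6 floxed-labelled libraries and at most 0.0462 CPM in the other 15. The Y-linked Ddx3y was at most 0.0286 CPM in those 6 and ranged over 61.0 to 86.3 CPM elsewhere. Genotype and sex therefore cannot be told apart in any comparison of floxed-labelled with WT cells, and Acsl4 is itself on the X chromosome. Summed macrophage markers (8 genes) were at 14237 to 40226 CPM in every library. All these are bulk values: a lower level can mean fewer cells of a type or less RNA per cell, and the libraries do not separate the 2.

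Levels of different genes were compared per kilobase of annotated exon, as CPM scaled to TMM-normalised library sizes (scaled CPM per kb). The length is that of all annotated exons together, 3590 bases for Cd36 and 10478 for Lpl, whichever transcripts the cells make. The order of genes depends on it: before division by length, Lpl averaged 4128 scaled CPM with IL-4 and Cd36 2034. In WT cells with IL-33 the highest was Lpl, which encodes the secreted lipoprotein lipase, at 375 ± 10.3 scaled CPM per kb (SD, n = 3). Below it, Cd36 (189 ± 8.61) and the droplet coat gene Plin2 (189 ± 11.5) did not differ beyond their spread. With IL-4, Cd36 stood highest at 567 ± 73.7 scaled CPM per kb, above Lpl at 394 ± 22.4 and Plin2 at 319 ± 11.4. Without cytokine the order was Lpl at 335 ± 52.0, Plin2 at 263 ± 5.73 and the lysosomal acid lipase gene Lipa at 234 ± 6.70. Plin2 and Lipa did not overlap in these untreated libraries, whereas Lpl had a wide spread. At the low end were Angptl4, whose secreted product inhibits lipoprotein lipase, at 0.251 ± 0.0735 under IL-33, 1.98 ± 0.160 under IL-4 and 2.18 ± 0.227 without cytokine. Etfb, the beta subunit of the electron transfer flavoprotein, was at 1.61 ± 0.0867 under IL-33 and 2.27 ± 0.218 under IL-4. Reads of Etfb and of Acadvl are uncertain, because 58.2% and 42.9% of their exon bases are shared with another gene and the strand setting of the counting is not given in the sources used here. Matches of at least 200 bases at 95% identity to transcripts of another annotated gene make the reads of 13 members uncertain. Genes that overlap a member at the same place were counted too, so these are not all copies elsewhere. The longest matches were 1428 bases for Hadhb, 1039 for Acsl1 and 626 for Etfb, and Slc25a20 had matches in 19 genes. Acsl1 and Etfb share 1039 and 678 exon bases with overlapping genes, and Hadhb shares 0. The other 9 members were Fabp5, Acsl3, Acadm, Acadvl, Echs1, Etfa, Etfdh, Plin2 and Lipe, with at most 469 bases.

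**Figure D1:**
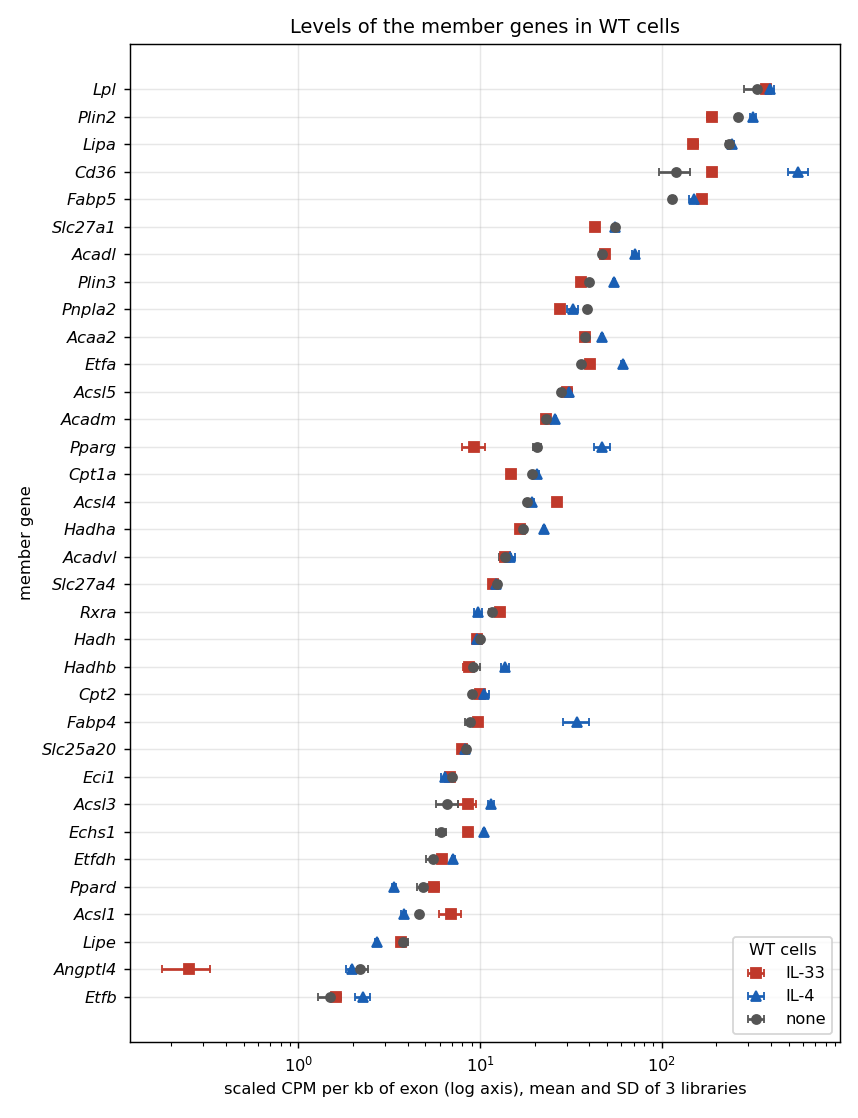
Levels of the 34 genes in WT macrophages with IL-33, IL-4 or no cytokine, as mean ± SD of scaled CPM per kb of exon over 3 libraries on a log axis. Cd36 under IL-4 (567) stands above every other gene and group, and Angptl4 under IL-33 (0.251) below them.

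IL-4 and IL-33 moved the receptor gene Pparg in opposite directions in WT macrophages. Under IL-4, 3 of the 8 genes of uptake, carriage and lipases rose (Cd36, Fabp4, Fabp5). The other 5, the transporters Slc27a1 and Slc27a4 among them, were not called. Of the 9 beta-oxidation genes, 6 rose (Hadha, Hadhb, Acadl, Acadm, Echs1, Acaa2) and 3 were not called. All 3 electron transfer genes (Etfa, Etfb, Etfdh) rose. Under IL-33, Pparg, Angptl4, Lipa, Plin2, Pnpla2 and Cpt1a fell, whereas Cd36, Fabp5 and 3 acyl-CoA synthetases rose, and of the 9 beta-oxidation genes Echs1 alone passed the test. With IL-33, 10 members were higher and 8 lower than without cytokine at an adjusted p under 0.05, which is 18 of 34, beside 35.4% of all genes tested (18.5% higher, 16.9% lower). Whether the members' share exceeds that background was not tested, here or below. The higher calls were fewer, 5 beside 8 lower, without untreated replicate 1 and 6 beside 8 without IL-33 replicate 3 or with upper-quartile scaling. With IL-4, 18 members were higher and 5 lower, with 11 not passing, beside 47.6% of all genes (25.1% higher, 22.5% lower). The median log2 change over the 34 members was 0.20 with IL-4, against 0.00 over all genes tested, and with IL-33 both medians were 0.00. Both comparisons use the same 3 untreated WT libraries, and the values of each are given side by side.

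**Figure D2:**
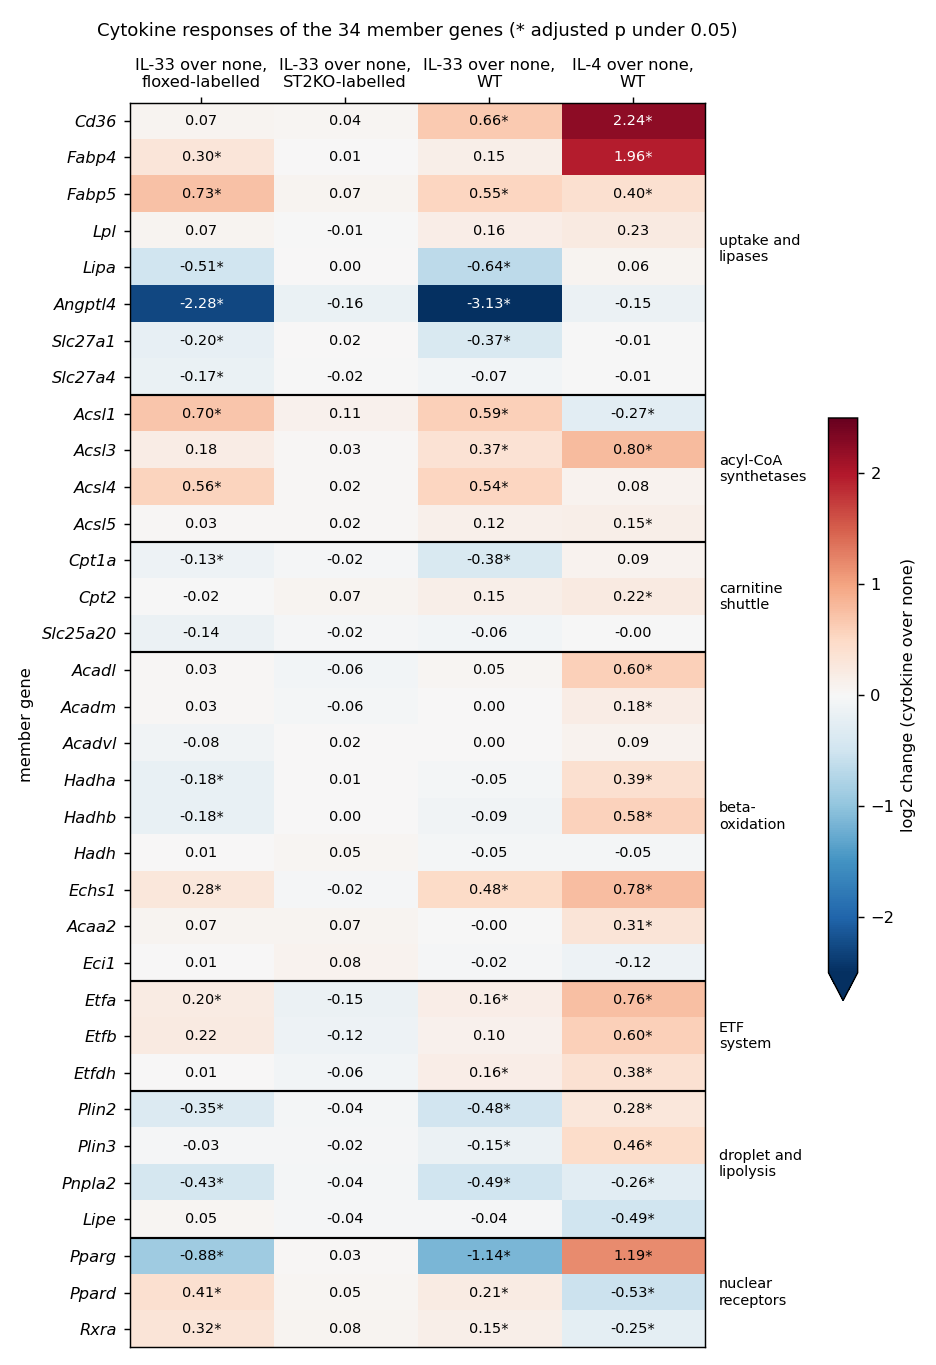
Log2 change of each of the 34 genes with cytokine over none, for IL-33 in floxed-labelled, ST2KO-labelled and WT cells and for IL-4 in WT cells, 3 libraries a group. A star marks an adjusted p under 0.05, and the colour is saturated below -2.5. The ST2KO-labelled column has no star, and Pparg is lower with IL-33 (-1.14) and higher with IL-4 (1.19) in WT cells.

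Among the 8 genes of uptake, carriage and lipases, IL-4 raised 3 and lowered 0, and IL-33 raised 2 and lowered 3. Cd36 (chromosome 5, 17781690 to 17888801, minus strand), the scavenger receptor that brings long-chain fatty acids and oxidised lipoproteins into macrophages, rose with both cytokines. It had 648, 679 and 710 scaled CPM under IL-33, 1914, 2337 and 1851 under IL-4 and 377, 525 and 387 without cytokine. All libraries of either cytokine lay above all untreated ones, and those with IL-4 far above those with IL-33. The log2 change was 2.24 ± 0.15 with IL-4 (SE, adjusted p = 2.9e-11, 4.73-fold) and 0.66 ± 0.14 with IL-33 (adjusted p = 0.000896, 1.58-fold). Fabp4 (chromosome 3, 10204088 to 10208576, minus strand), a cytosolic fatty acid carrier known as a PPAR-gamma target, had 43.3, 43.7 and 44.7 scaled CPM under IL-33, 156, 128 and 177 under IL-4 and 37.3, 41.6 and 39.5 without cytokine. It rose 3.9-fold with IL-4 (log2 1.96 ± 0.09, adjusted p = 2.74e-14). Its IL-33 libraries also lay above the untreated ones, by a small margin that did not pass the test (log2 0.15 ± 0.09, adjusted p = 0.178). Its neighbour on chromosome 3, Fabp5, the epidermal-type carrier, rose with both, by 0.55 ± 0.06 on the log2 scale with IL-33 (adjusted p = 9.95e-08) and 0.40 ± 0.06 with IL-4 (adjusted p = 4.34e-06).

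Angptl4 (chromosome 17, 33773750 to 33781830, minus strand) had the steepest fall with IL-33 of the 34 genes. Its libraries held 1.00, 0.590 and 1.07 scaled CPM under IL-33, 7.62, 6.51 and 6.88 under IL-4 and 6.89, 8.48 and 7.84 without cytokine, which is 38, 24 and 38 counts with IL-33 and 252, 327 and 313 counts without cytokine. The IL-33 libraries lay far below the rest, 8.76-fold lower than the untreated ones (log2 change -3.13 ± 0.20, adjusted p = 2.43e-11), and the IL-4 libraries overlapped the untreated ones (log2 change -0.15 ± 0.16, adjusted p = 0.476). Lipa had 1071, 1016 and 954 scaled CPM under IL-33, 1674, 1608 and 1678 under IL-4 and 1533, 1609 and 1614 without cytokine. It fell with IL-33 by 0.64 on the log2 scale (SE 0.04, adjusted p = 6.1e-11) and was not called with IL-4 (0.06 ± 0.04). Slc27a1, a fatty acid transport protein of the plasma membrane, also fell with IL-33, by 0.37 (SE 0.04, adjusted p = 7.58e-08), whereas Slc27a4 of the same family was not called with either. Lpl averaged 3932 ± 108 scaled CPM with IL-33, 4128 ± 234 with IL-4 and 3513 ± 544 without cytokine and passed neither test (adjusted p = 0.248 and 0.0712). It passed both when the untreated replicate 2, the highest at 4122, was left out (adjusted p = 0.0393 for IL-33 and 0.00932 for IL-4). It also passed both with all libraries when no filter on low counts was used (adjusted p = 0.0021 and 5.72e-06).

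**Figure D3:**
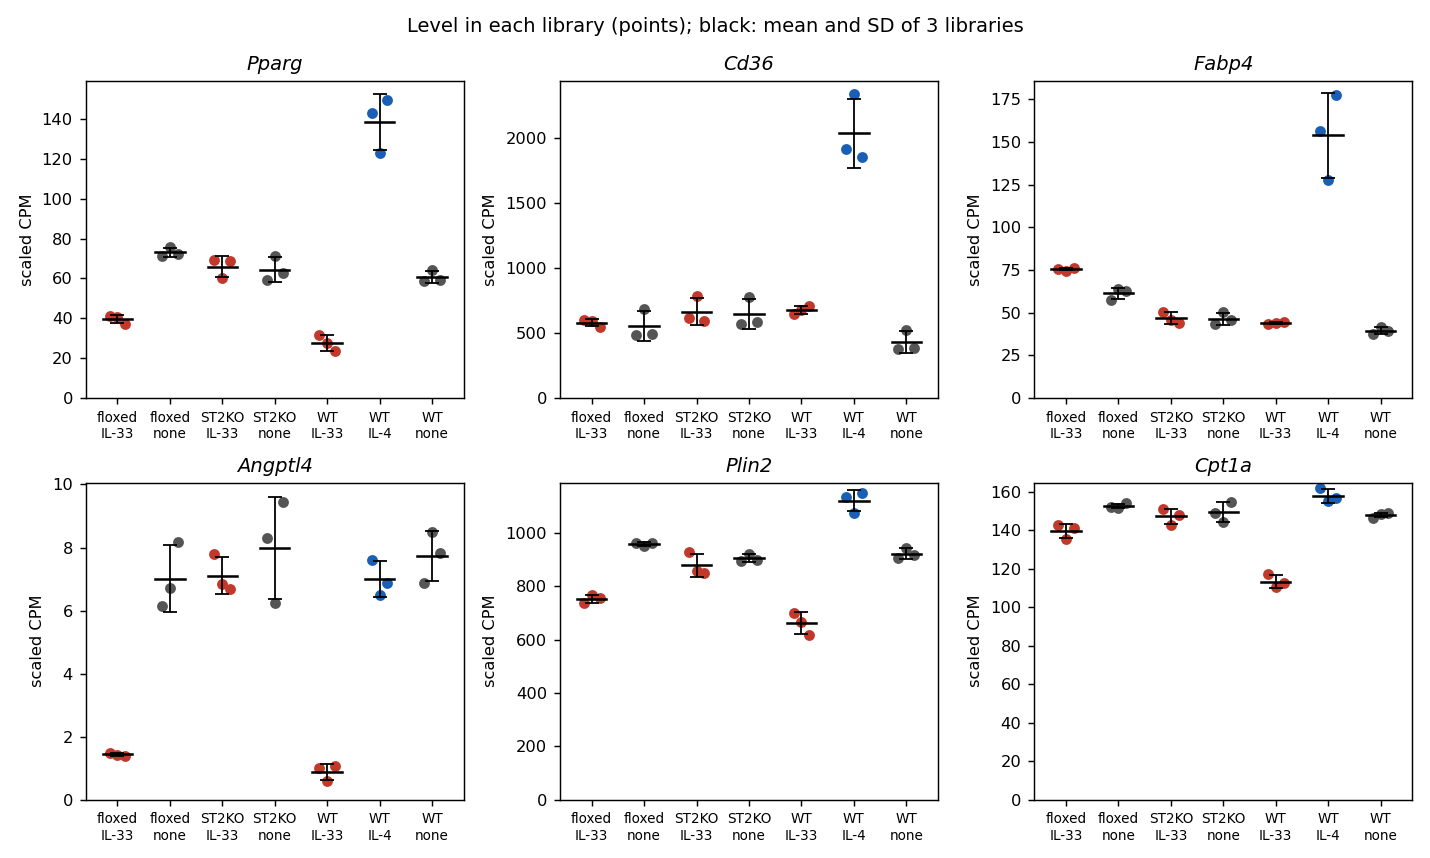
Scaled CPM of Pparg, Cd36, Fabp4, Angptl4, Plin2 and Cpt1a in each library of the 7 groups, with the mean and SD as bars. Pparg and Cd36 are highest in WT cells with IL-4, and Angptl4 lies at or below 1.48 in every WT and floxed-labelled library with IL-33 and at or above 6.14 in every other library.

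The 4 acyl-CoA synthetases, which trap fatty acids in the cell by joining them to coenzyme A, moved differently with the 2 cytokines. With IL-33, 3 rose and 0 fell. Acsl1 rose by 0.59 ± 0.08 on the log2 scale (adjusted p = 2.07e-06). Acsl4, which prefers arachidonate, rose by 0.54 ± 0.04 (adjusted p = 6.32e-10) and Acsl3, an enzyme of the droplet and endoplasmic reticulum, by 0.37 ± 0.10 (adjusted p = 0.00789). With IL-4, Acsl3 rose by 0.80 ± 0.10 (adjusted p = 1.11e-06) and Acsl5 by 0.15 ± 0.05, and Acsl1 fell by 0.27 (SE 0.08, adjusted p = 0.00606). Acsl1 had 65.9, 67.7 and 84.1 scaled CPM under IL-33, 40.9, 39.9 and 38.6 under IL-4 and 47.2, 48.7 and 48.3 without cytokine, so that the 3 groups did not overlap. The Acsl3 call with IL-33 was lost without untreated replicate 1 (adjusted p = 0.0548), without untreated replicate 3 (0.0554) or without IL-33 replicate 3 (0.0543). The Acsl5 call with IL-4 was lost when any 1 of 5 libraries was left out, IL-4 replicate 2 being the exception (adjusted p 0.0503 to 0.144).

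Of the carnitine shuttle genes, Cpt1a (chromosome 19, 3322334 to 3385733, plus strand) encodes the outer-membrane transferase that sets the rate of fatty acid entry into mitochondria. It had 117.3, 110.5 and 112.5 scaled CPM under IL-33, 162, 155 and 157 under IL-4 and 147, 149 and 149 without cytokine. The IL-33 libraries lay below the untreated ones and the IL-4 libraries slightly above them. The fall with IL-33 was 0.38 on the log2 scale (SE 0.04, adjusted p = 1.18e-07), and the change with IL-4 missed the threshold (0.09 ± 0.04, adjusted p = 0.0616). Cpt2, the inner-membrane transferase, rose with IL-4 by 0.22 ± 0.07 (adjusted p = 0.0181). That call was lost without any 1 of 4 libraries: untreated replicate 1 (adjusted p = 0.076), untreated replicate 2 (0.0755), IL-4 replicate 1 (0.0557) and IL-4 replicate 2 (0.144). Slc25a20, the carnitine-acylcarnitine carrier between them, was not called with IL-33 (-0.06 ± 0.07) or IL-4 (0.00 ± 0.07).

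Of the 9 beta-oxidation genes, 6 rose and 0 fell with IL-4. Echs1, the enoyl-CoA hydratase of short chains, rose most, with 67.2, 72.4 and 72.7 scaled CPM under IL-33, 86.3, 86.4 and 88.3 under IL-4 and 47.5, 53.8 and 50.7 without cytokine. It was also the member of this group that rose with IL-33, by 0.48 ± 0.05 on the log2 scale (adjusted p = 2.33e-07), against 0.78 ± 0.05 with IL-4 (adjusted p = 5.04e-11). The long-chain acyl-CoA dehydrogenase gene Acadl rose with IL-4 by 0.60 ± 0.05 (adjusted p = 3.66e-09). The divergent pair whose shared start region is printed above also rose, Hadhb by 0.58 ± 0.06 (adjusted p = 8.03e-08) and Hadha by 0.39 ± 0.04 (adjusted p = 9.74e-08). Hadhb had 59.4, 52.8 and 59.2 scaled CPM under IL-33, 90.94, 86.47 and 94.997 under IL-4 and 56.1, 66.5 and 59.4 without cytokine. Hadha had 143, 141 and 149 under IL-33, 198, 195 and 199 under IL-4 and 148, 154 and 147 without cytokine. For both, the IL-4 libraries stood alone and the others overlapped. The thiolase gene Acaa2 (0.31 ± 0.06, adjusted p = 0.00023) and the medium-chain dehydrogenase gene Acadm (0.18 ± 0.05, adjusted p = 0.00413) rose less. The very-long-chain dehydrogenase gene Acadvl, the hydroxyacyl-CoA dehydrogenase gene Hadh and the enoyl-CoA isomerase gene Eci1 passed neither test, with log2 changes of 0.09, -0.05 and -0.12 with IL-4.

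The electron transfer flavoprotein passes electrons of the acyl-CoA dehydrogenases to the respiratory chain. Its alpha subunit gene Etfa had 77.3, 72.2 and 72.7 scaled CPM under IL-33, 112, 110 and 115 under IL-4 and 65.8, 65.1 and 68.0 without cytokine. Etfa rose with IL-4 by 0.76 ± 0.05 on the log2 scale (adjusted p = 1.1e-10). Etfb rose by 0.60 ± 0.18 (adjusted p = 0.00699) and Etfdh, the oxidoreductase that receives the electrons, by 0.38 ± 0.06 (adjusted p = 2.48e-05). The smaller IL-33 changes of Etfa (0.16 ± 0.05, adjusted p = 0.0258) and Etfdh (0.16 ± 0.06, adjusted p = 0.049) rested on most libraries. Without untreated replicate 1 or 2 or IL-33 replicate 1 or 3, the adjusted p of Etfa was 0.0896, 0.103, 0.143 and 0.0504. Without the same 4 libraries, that of Etfdh was 0.0886, 0.308, 0.214 and 0.134. With all libraries, the Etfa call was lost with upper-quartile scaling (adjusted p = 0.121) and with no filter on low counts (0.0716). That of Etfdh was lost with these (0.154, 0.126) and with RLE size factors (0.0511). It was also lost with DESeq2 (0.0502), limma-voom (0.0507) and a fit of only the groups compared (0.116). The Etfb call with IL-4 was lost without untreated replicate 3 (adjusted p = 0.0538) or with no filter on low counts (0.0803).

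At the lipid droplet, the coat genes and the lipase genes took different directions with IL-4. The coat gene Plin2 had 699, 668 and 619 scaled CPM under IL-33, 1137, 1076 and 1151 under IL-4 and 905, 944 and 919 without cytokine, and the 3 groups did not overlap. It and the coat gene Plin3 rose with IL-4 (log2 0.28 ± 0.04 and 0.46 ± 0.04, adjusted p = 1.47e-05 and 1.49e-08). Both fell with IL-33, by 0.48 and 0.15 on the log2 scale (SE 0.04 each, adjusted p = 1.53e-08 and 0.0135); for Plin3 that call was lost without IL-33 replicate 2 (adjusted p = 0.0606). Pnpla2, the adipose triglyceride lipase that starts lipolysis, fell with both, by 0.49 with IL-33 (SE 0.05, adjusted p = 1.04e-07) and by 0.26 with IL-4 (SE 0.05, adjusted p = 0.000186). Lipe, the hormone-sensitive lipase, fell with IL-4 by 0.49 (SE 0.08, adjusted p = 1.53e-05) and was not called with IL-33 (-0.04 ± 0.08).

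Among the receptors, Pparg (chromosome 6, 115360951 to 115490399, plus strand) had 31.4, 27.8 and 23.4 scaled CPM under IL-33, 143, 123 and 150 under IL-4 and 58.5, 64.1 and 59.5 without cytokine. The 3 groups did not overlap, IL-33 lying below and IL-4 above the untreated cells. It was 2.2-fold lower with IL-33 (log2 -1.14 ± 0.09, adjusted p = 1.95e-09) and 2.28-fold higher with IL-4 (log2 1.19 ± 0.09, adjusted p = 2.14e-10). Ppard, the more widely expressed PPAR-delta, and Rxra, the heterodimer partner, moved the other way from Pparg with each cytokine. With IL-4, Ppard fell by 0.53 (SE 0.07, adjusted p = 3.21e-06) and Rxra by 0.25 (SE 0.05, adjusted p = 0.000301). With IL-33 they rose by 0.21 ± 0.07 (adjusted p = 0.0314) and 0.15 ± 0.05 (adjusted p = 0.0299). Both IL-33 calls were lost without untreated replicate 1 (adjusted p = 0.0614 for Ppard, 0.0765 for Rxra), untreated replicate 2 (0.193, 0.148) or IL-33 replicate 3 (0.158, 0.0856). That of Ppard was also lost without IL-33 replicate 2 (0.1) and that of Rxra without IL-33 replicate 1 (0.106).

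Markers of other cell types moved beside these changes. The summed level of 7 dendritic cell markers was 125 to 208 scaled CPM with IL-33, 830 to 1235 with IL-4 and 47.9 to 95.2 without cytokine. That of 8 neutrophil markers was 47.5 to 49.8 with IL-33, 16.2 to 16.8 with IL-4 and 21.04 to 26.02 without cytokine. Macrophage markers (8 genes) summed to 36196 to 40226 with IL-33, 14237 to 15756 with IL-4 and 27133 to 30030 without cytokine. Of 6 adipocyte markers, Plin1, Lep and Cfd were at 0 in every WT library, Retn had at most 2 counts in any, and Adipoq accounted for nearly all of the 4.52 to 9.23 scaled CPM with IL-4, against at most 0.169 with IL-33 and 0 without cytokine. The summed level of 3 eosinophil markers was 8.87 to 10.4 with IL-33, 27.8 to 38.7 with IL-4 and 6.26 to 10.46 without cytokine. That of 6 mast cell and basophil markers was 2.14 to 4.78 with IL-33, 1.91 to 2.75 with IL-4 and 7.08 to 10.7 without cytokine. A sum can hide opposite moves. With IL-33, 3 of 7 dendritic markers were called higher and 0 lower, and with IL-4, 2 and 1. Of 7 neutrophil markers tested, 5 were higher with IL-33 and 5 lower with IL-4. Of 4 mast cell and basophil markers tested, 2 were higher and 1 lower with IL-33, and 0 and 1 with IL-4. Of 8 macrophage markers, 5 were higher and 1 lower with IL-33, and 3 and 5 with IL-4. Of 2 eosinophil markers tested, 1 was higher with IL-4. Among 4 stromal markers tested, 1 was lower with IL-33 and 0 were called with IL-4. The part of these other cell types in the member results was not tested.

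Setting the cytokines against each other in WT cells, IL-33 left 20 members lower and 6 higher than IL-4 did, beside 39.9% of all genes called (20.7% lower, 19.2% higher). The median log2 difference was -0.26 over the members and -0.01 over all genes. The widest gaps were Angptl4 (log2 difference -2.98 ± 0.20), Pparg (-2.33 ± 0.09), Fabp4 (-1.81 ± 0.09) and Cd36 (-1.58 ± 0.15). All 3 electron transfer genes and 6 of the 9 beta-oxidation genes were lower with IL-33, from Hadhb (-0.67 ± 0.06) to Acadm (-0.17 ± 0.05). So were Cpt1a (-0.48 ± 0.04), Plin2 (-0.76 ± 0.04), Plin3 (-0.60 ± 0.04) and Lipa (-0.71 ± 0.04). Acsl3 (-0.43 ± 0.10), Slc27a1 (-0.36 ± 0.04) and Pnpla2 (-0.23 ± 0.05) complete the 20. The 6 higher with IL-33 were Acsl1 (0.87 ± 0.08), Ppard (0.73 ± 0.07), Acsl4 (0.46 ± 0.04), Lipe (0.45 ± 0.08), Rxra (0.40 ± 0.05) and Fabp5 (0.15 ± 0.06). The Fabp5 call was lost without IL-33 replicate 2 or 3 (adjusted p = 0.105 and 0.0967) or IL-4 replicate 1 or 2 (0.118 and 0.175). That of Etfb was lost without IL-33 replicate 1 or 2 (0.0661 and 0.0943) or IL-4 replicate 2 (0.116), and that of Etfdh without IL-33 replicate 2 (0.0671).

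**Figure D4:**
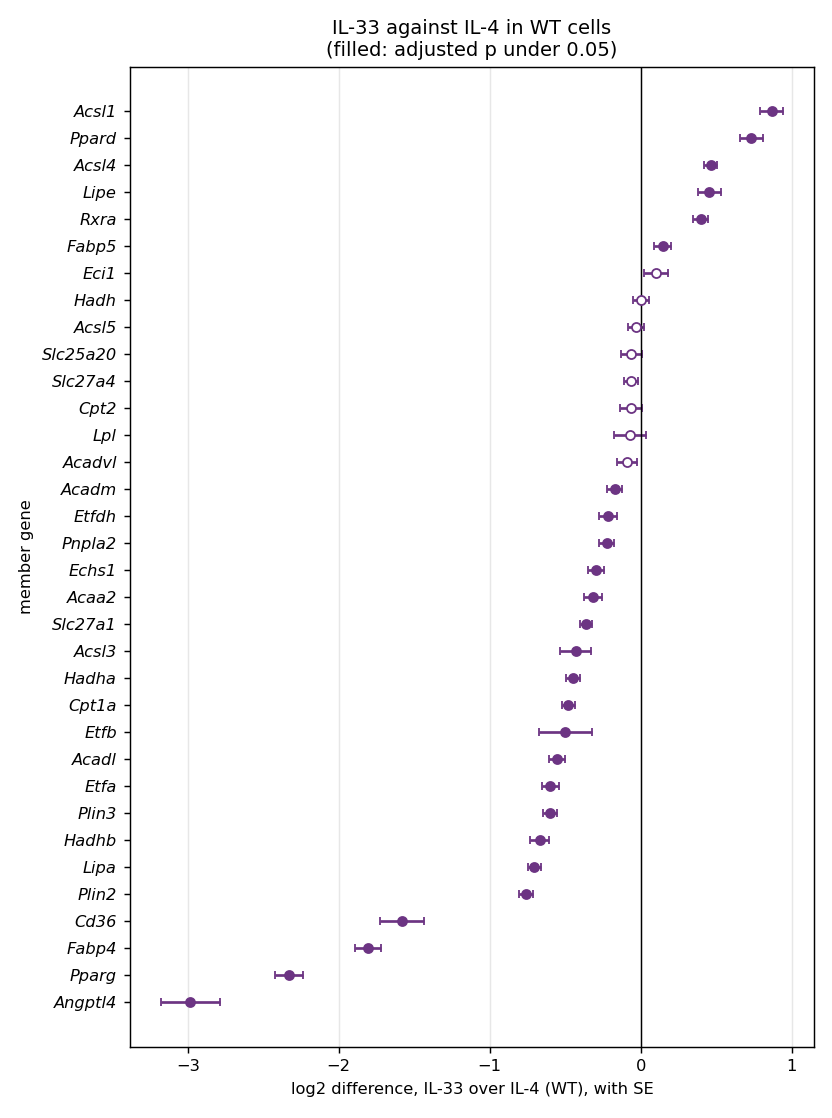
Log2 difference between IL-33 and IL-4 in WT cells for the 34 genes, with its SE, 3 libraries a group; filled points passed at an adjusted p under 0.05. The points of Angptl4 (-2.98) and Pparg (-2.33) lie farthest to the side of lower with IL-33, and Acsl1 (0.87) farthest to the other.

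Of 74 further genes of fatty acid metabolism listed for context, 59 were tested. With IL-33, 15 were higher and 16 lower in WT cells, beside 18.5% and 16.9% of all genes tested. With IL-4, 18 were higher and 12 lower, beside 25.1% and 22.5%. Ppargc1b, the coactivator PGC-1 beta that is known to promote oxidative metabolism in IL-4-treated macrophages, rose with both, by 1.56 ± 0.18 on the log2 scale for IL-33 and 2.90 ± 0.18 for IL-4. The other largest rises with IL-33 were Hilpda, a droplet protein that inhibits lipolysis (0.87), and the peroxisomal importer gene Abcd2 (0.85). The largest falls were the thioesterase gene Acot1 (-1.47), the monoglyceride lipase gene Mgll (-1.38) and the fatty acid carrier gene Fabp3 (-1.04). Mgll was low, averaging 0.512 scaled CPM with IL-33 and 1.35 without cytokine. With IL-4 the fatty acid receptor gene Ffar4 (4.14, from 198 counts in all over the IL-4 libraries) and Slc27a3 (3.91) rose most, and Acot1 (-1.17), the lipin gene Lpin2 (-1.14) and the neuronal-type transferase gene Cpt1c (-0.86) fell most. IL-33 over IL-4 called 8 higher and 20 lower, beside 19.2% and 20.7% of all genes. The 8 were led by Lpin2 (0.82), the peroxisomal thiolase gene Acaa1a (0.63) and the mitochondrial deacetylase gene Sirt3 (0.56). The 20 were led by Slc27a3 (-4.42), Ffar4 (-3.78) and Ppargc1b (-1.34). Acot1 and Acot2, Acaa1a and Acaa1b, and Fabp3 and its pseudogene are near copies, and their split of reads is uncertain.

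In ST2KO-labelled cells the 34 genes showed no called response to IL-33. At an adjusted p under 0.05, edgeR called 0 members and 0% of all genes; 1 member and 507 genes in all passed an unadjusted p under 0.05, and DESeq2 and limma-voom also called 0 members. Pparg had 69.3, 60.2 and 68.6 scaled CPM in ST2KO-labelled cells with IL-33 and 59.4, 71.2 and 62.9 in those without. Angptl4 had 7.80, 6.84 and 6.69 with IL-33 and 8.29, 6.23 and 9.43 without. Both genes overlapped between the groups, with 95% intervals for the log2 change of -0.15 to 0.22 for Pparg and -0.49 to 0.16 for Angptl4, which do not reach the WT changes of -1.14 and -3.13. Cd36 had 613, 784 and 592 scaled CPM with IL-33 and 572, 776 and 582 without, and Cpt1a 151, 143 and 148 with IL-33 and 149, 145 and 155 without, both overlapping. The members' log2 changes reached at most 0.16 in size.

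The difference between the responses to IL-33 in ST2KO-labelled and WT cells was itself tested and was called for 13 members, 7 higher and 6 lower, beside 22.7% of all genes (10.6% higher, 12.1% lower). The 7 higher had fallen with IL-33 in WT cells: Angptl4 (2.97 ± 0.25), Pparg (1.17 ± 0.13), Lipa (0.65 ± 0.06), Pnpla2 (0.45 ± 0.07), Plin2 (0.43 ± 0.06), Slc27a1 (0.39 ± 0.05) and Cpt1a (0.36 ± 0.06). The 6 lower had risen in WT cells: Cd36 (-0.62 ± 0.20), Acsl4 (-0.52 ± 0.06), Echs1 (-0.50 ± 0.08), Acsl1 (-0.48 ± 0.11), Fabp5 (-0.48 ± 0.08) and Etfa (-0.32 ± 0.08). The Cd36 call (adjusted p = 0.0312) was lost with DESeq2 (0.0575) and without any 1 of 7 of the 12 libraries. These were WT none replicate 1 or 3 (0.0943, 0.0899), WT IL-33 replicate 2 or 3 (0.0569, 0.0681), ST2KO-labelled none replicate 2 (0.12) and ST2KO-labelled IL-33 replicate 1 or 3 (0.0779, 0.09).

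Before any cytokine, Cd36 and Lpl were higher in ST2KO-labelled than in WT cells, 2 of the 34 members and 1.35% of all genes. Cd36 had 572, 776 and 582 scaled CPM in ST2KO-labelled cells and 377, 525 and 387 in WT cells, a log2 difference of 0.58 ± 0.14 (adjusted p = 0.0447). Lpl had 4333, 5321 and 4463 in ST2KO-labelled and 3072, 4122 and 3345 in WT cells (0.42 ± 0.10, adjusted p = 0.045). In both genotypes replicate 2 was the highest for both genes. Both calls were lost without WT replicate 1 or 3 (adjusted p = 0.253 and 0.216 for Cd36, 0.276 and 0.206 for Lpl). They were also lost without ST2KO-labelled replicate 2 or 3 (0.329 and 0.0626 for Cd36, 0.319 and 0.0728 for Lpl) and when only the groups compared were fitted (0.0629 and 0.0674). Dendritic cell markers summed to 121 to 158 scaled CPM in these ST2KO-labelled libraries and 47.9 to 95.2 in the WT ones. Of the 7 dendritic markers, 1 was called higher and 0 lower. The part of these cells was not tested. With IL-33 in both, 9 members were higher and 7 lower in ST2KO-labelled cells, beside 37% of all genes (17.9% higher, 19.1% lower). They were led by Angptl4 (3.01 ± 0.20), Pparg (1.26 ± 0.09) and Lipa (0.62 ± 0.04) on the higher side and by Acsl4 (-0.62 ± 0.04), Acsl1 (-0.52 ± 0.08) and Fabp5 (-0.47 ± 0.06) on the lower. Calls among them were lost without single libraries for Etfdh (-0.17; WT replicate 1 or 3, adjusted p = 0.174 and 0.105, or ST2KO-labelled replicate 1, 2 or 3, 0.0849, 0.0808 and 0.0823). The same held for Ppard (-0.21; WT replicate 2 or 3, 0.0878 and 0.138, or ST2KO-labelled replicate 1, 0.137) and Plin3 (0.14; WT replicate 2, 0.0748, or ST2KO-labelled replicate 1, 0.0864). The other 6 on the higher side were Plin2 (0.41), Cpt1a (0.38), Slc27a1 (0.34), Pnpla2 (0.31), Hadha (0.16) and Plin3, and the other 4 on the lower were Echs1 (-0.37), Etfa (-0.33), Ppard and Etfdh.

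Among the 59 further genes, 0 were called for IL-33 in ST2KO-labelled cells, beside 0% of all genes. The difference from the WT response was called for 19 (11 higher, 8 lower), beside 22.7% (10.6% higher, 12.1% lower). These were led by Acot1 (1.43), Fabp3 (0.98) and the mitochondrial thioesterase gene Acot2 (0.91) and by Ppargc1b (-1.64), Abcd2 (-0.88) and Hilpda (-0.80). Without cytokine 2 were lower in ST2KO-labelled than in WT cells, Acaa1a (-0.34) and Lpin2 (-0.30), and 0 higher, beside 0.484% and 0.871% of all genes. With IL-33 in both, 15 were higher and 19 lower, beside 17.9% and 19.1% of all genes. The higher were led by Mgll (1.65), Acot1 (1.15) and Acot2 (0.80). The lower were led by the lipoprotein receptor gene Vldlr (-2.40), Ppargc1b (-1.43) and the triglyceride synthesis gene Dgat2 (-1.39). Some of these levels were low. Vldlr averaged 0.0819 scaled CPM in ST2KO-labelled and 0.447 in WT cells with IL-33 (SE of the log2 difference 0.86). Dgat2 averaged 0.347 and 0.900 (SE 0.45), and Mgll 1.63 and 0.512 (SE 0.46).

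Floxed-labelled cells responded to IL-33 with 8 members higher and 10 lower, beside 33.4% of all genes (17.1% higher, 16.3% lower). The falls of Angptl4, Pparg, Lipa, Plin2 and Pnpla2 and the rises of Fabp5, Acsl1, Acsl4 and Echs1 were called here too, and Cd36 was not. Pparg had 41.1, 40.6 and 37.2 scaled CPM in floxed-labelled cells with IL-33 and 71.1, 75.6 and 72.5 in those without (log2 change -0.88 ± 0.09, adjusted p = 8.44e-08). Angptl4 had 1.481, 1.423 and 1.401 with IL-33 and 6.14, 6.70 and 8.19 without (-2.28 ± 0.18, adjusted p = 2.01e-09). Neither gene overlapped between the groups. Cd36 had 599.9, 596 and 546 with IL-33 and 484, 686 and 488 without, overlapping (0.07 ± 0.14, adjusted p = 0.757). Fabp4, which did not pass with IL-33 in WT cells, had 75.7, 74.6 and 76.2 with IL-33 and 57.6, 64.0 and 62.4 without (0.30 ± 0.08, adjusted p = 0.00774). Fabp5 had 802, 864 and 918 with IL-33 and 517, 508 and 529 without (0.73 ± 0.06, adjusted p = 1.32e-09).

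Of the other members called with IL-33 in floxed-labelled cells, 6 rose and 8 fell. Acsl1 (0.70 ± 0.08), Acsl4 (0.56 ± 0.04), Ppard (0.41 ± 0.07), Rxra (0.32 ± 0.05), Echs1 (0.28 ± 0.05) and Etfa (0.20 ± 0.06) rose. Lipa (-0.51 ± 0.04), Pnpla2 (-0.43 ± 0.05), Plin2 (-0.35 ± 0.04), Slc27a1 (-0.20 ± 0.04), Hadha (-0.18 ± 0.04), Hadhb (-0.18 ± 0.06), Slc27a4 (-0.17 ± 0.05) and Cpt1a (-0.13 ± 0.04) fell. The Hadhb call (adjusted p = 0.0341) was lost without any 1 of the 6 libraries (0.0546 to 0.106). That of Slc27a4 was lost without replicate 3 of either group (0.0558 without the untreated one, 0.0722 without the IL-33 one), and that of Cpt1a without untreated replicate 1 or 3 (0.0579, 0.0738) or IL-33 replicate 2 (0.108). Neutrophil markers summed to 60.8 to 87.5 scaled CPM in the floxed-labelled libraries with IL-33 and 44.3 to 50.3 in those without. Dendritic cell markers summed to 217 to 250 with IL-33 and 102 to 168 without. Of 7 neutrophil markers tested, 4 were called higher and 0 lower, and of 7 dendritic markers, 2 and 1. Among 4 stromal markers tested, 0 were called higher and 2 lower, and among 4 mast cell and basophil markers, 2 and 1. The part of these cells was not tested.

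When the difference between the IL-33 responses of floxed-labelled and WT cells was tested, Cpt1a alone passed among the 34 members, beside 1.22% of all genes (0.539% higher, 0.677% lower). Cpt1a had 143, 135 and 141 scaled CPM in floxed-labelled cells with IL-33 and 152, 152 and 154 without, beside 117.3, 110.5 and 112.5 in WT cells with IL-33 and 147, 149 and 149 without. The untreated groups lay close together and the fall was smaller in floxed-labelled cells, a difference of 0.26 ± 0.06 on the log2 scale (adjusted p = 0.0328). That call was lost with no filter on low counts (adjusted p = 0.115) and without WT none replicate 3 (0.0562), WT IL-33 replicate 2 (0.087), floxed-labelled none replicate 2 (0.0709) or floxed-labelled IL-33 replicate 1 or 3 (0.0746, 0.0663). Cd36 (-0.59 ± 0.20, adjusted p = 0.178), Angptl4 (0.85 ± 0.27, adjusted p = 0.15) and Pparg (0.26 ± 0.13, adjusted p = 0.393) did not pass. With no filter on low counts the Cd36 difference passed (adjusted p = 4.89e-13). It also passed with the filter when a term for the replicate number was fitted (0.00605). Whether the Cd36 response is called different therefore depends on both choices.

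**Figure D5:**
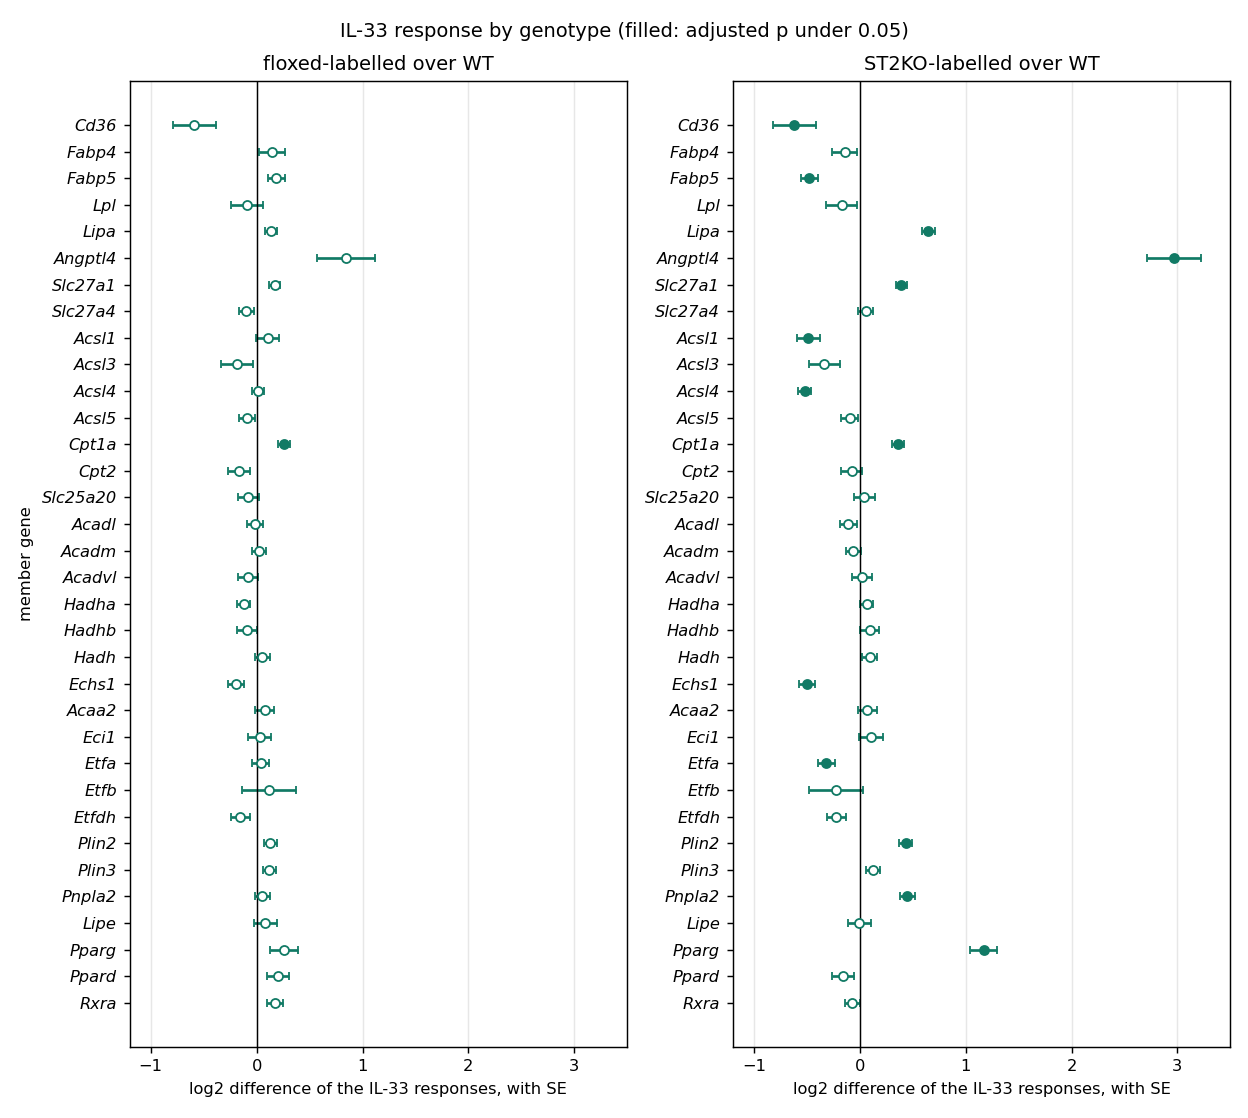
Difference between the log2 responses to IL-33 of floxed-labelled and WT cells (left) and of ST2KO-labelled and WT cells (right) for the 34 genes, with SE, 3 libraries a group; filled points passed at an adjusted p under 0.05. On the left Cpt1a (0.26) alone is filled, and on the right 13 points are, with Angptl4 (2.97) farthest from 0.

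Levels also differed between floxed-labelled and WT cells under the same condition. Without cytokine, 5 members were higher and 1 lower in floxed-labelled cells, beside 9.85% of all genes (5.60% higher, 4.25% lower). The higher members were 2 without WT replicate 1 and 3 without floxed-labelled replicate 2. Fabp4 had 57.6, 64.0 and 62.4 scaled CPM in floxed-labelled and 37.3, 41.6 and 39.5 in WT cells (log2 difference 0.64 ± 0.09, adjusted p = 5.19e-05), with no overlap. Fabp5 (0.34 ± 0.06), Lpl (0.43 ± 0.10), Lipa (0.16 ± 0.04) and Echs1 (0.24 ± 0.05) were also higher, and Rxra was lower (-0.41 ± 0.05, adjusted p = 2.34e-05). The calls of Lpl and Lipa were lost without WT replicate 1 (adjusted p = 0.0948 and 0.114) or floxed-labelled replicate 2 (0.106 and 0.0707). That of Lpl was also lost without WT replicate 3 (0.0655), that of Lipa without floxed-labelled replicate 3 (0.058) and that of Echs1 without WT replicate 1 (0.0629).

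With IL-33 in both, 9 members were higher and 1 lower in floxed-labelled than in WT cells, beside 11.3% of all genes (5.50% higher, 5.85% lower). Fabp4 had 75.7, 74.6 and 76.2 scaled CPM in floxed-labelled and 43.3, 43.7 and 44.7 in WT cells (0.78 ± 0.09, adjusted p = 1.56e-06). Pparg had 41.1, 40.6 and 37.2 in floxed-labelled and 31.4, 27.8 and 23.4 in WT cells (0.52 ± 0.09, adjusted p = 0.000625). Neither overlapped. Fabp5 (0.53 ± 0.06), Lpl (0.34 ± 0.10), Lipa (0.30 ± 0.04), Cpt1a (0.30 ± 0.04), Plin2 (0.19 ± 0.04), Plin3 (0.19 ± 0.04) and Angptl4 (0.70 ± 0.22) were also higher, and Rxra was lower (-0.24 ± 0.05). The Angptl4 call (adjusted p = 0.0466) was lost without WT replicate 2 (0.242) or any 1 floxed-labelled replicate (0.117, 0.0838 and 0.0909 for 1, 2 and 3). That of Lpl (adjusted p = 0.0396) was lost without any 1 WT replicate (0.0924, 0.0943 and 0.0661) or floxed-labelled replicate 1 or 2 (0.0783, 0.144). Neutrophil markers summed to 60.8 to 87.5 scaled CPM in floxed-labelled and 47.5 to 49.8 in WT libraries with IL-33, and to 44.3 to 50.3 in floxed-labelled and 21.04 to 26.02 in WT libraries without cytokine. Dendritic cell markers summed to 217 to 250 in floxed-labelled and 125 to 208 in WT libraries with IL-33, and to 102 to 168 in floxed-labelled and 47.9 to 95.2 in WT libraries without cytokine. Eosinophil markers summed to 17.9 to 19.9 in floxed-labelled and 8.87 to 10.4 in WT libraries with IL-33, and to 11.9 to 16.7 in floxed-labelled and 6.26 to 10.46 in WT libraries without cytokine. Mast cell and basophil markers summed to 6.75 to 8.95 in floxed-labelled and 2.14 to 4.78 in WT libraries with IL-33, and to 7.82 to 12.1 in floxed-labelled and 7.08 to 10.7 in WT libraries without cytokine. With IL-33, 5 of 7 neutrophil, 0 of 7 dendritic, 2 of 2 eosinophil and 1 of 4 mast cell and basophil markers tested were called higher. Without cytokine, 5, 1, 1 and 1 of these were, and in both conditions 0 were called lower. The part of these cell types was not tested, and sex and genotype cannot be told apart in any of these differences.

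Among the 59 further genes, IL-33 left 16 higher and 9 lower in floxed-labelled cells, beside 17.1% and 16.3% of all genes. The higher were led by Ppargc1b (1.58), Acaa1a (0.76) and the peroxisomal bifunctional enzyme gene Ehhadh (0.65). The lower were led by Cpt1c (-1.61), Mgll (-1.44) and Acot1 (-1.12). Cpt1c averaged 0.809 scaled CPM with IL-33 and 2.48 without, and Mgll 1.17 and 3.17. The response of Abcd2, the peroxisomal importer, was lower than in WT cells, with a difference of -0.85 ± 0.09 on the log2 scale (adjusted p = 3.56e-05). Of the 59, Abcd2 alone was called for that difference, beside 1.22% of all genes. Against untreated WT cells, untreated floxed-labelled cells had 3 higher and 3 lower, beside 5.6% and 4.25% of all genes. The higher were the liver X receptor gene Nr1h3 (0.65), the carnitine transporter gene Slc22a5 (0.37) and Acad12 (0.30). The lower were Fabp3 (-0.89), Acaa1a (-0.50) and the receptor gene Rxrb (-0.23). With IL-33 in both, 4 were higher and 4 lower, beside 5.5% and 5.85% of all genes. The higher were led by Ehhadh (0.55), Nr1h3 (0.51) and the peroxisomal oxidase gene Acox3 (0.37). The lower were led by Cpt1c (-0.95), Abcd2 (-0.90) and the short-chain dehydrogenase gene Acads (-0.20).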

How the data were processed

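The labels describe total RNA of cultured macrophages, RNeasy isolation, libraries made from 1 ug with the NEBNext Ultra kit and paired NovaSeq reads of 150 bases. Per the submitters' processing notes, HISAT2 2.0.5, HTSeq 0.6.1 and DESeq2 1.22.2 were used with GRCm38/mm10; annotation release and strand setting are not given in the sources used here. The authors deposited raw counts per gene. From these counts, edgeR 4.0.16 (R 4.3.3) fitted all 21 libraries in 1 quasi-likelihood model with a mean per group, TMM scaling and the filterByExpr filter, with Benjamini-Hochberg adjustment over the 14473 genes tested and calls at an adjusted p under 0.05. The model left 14 residual degrees of freedom and a common biological coefficient of variation of 0.0860. Levels are CPM scaled to TMM library sizes. Differences between IL-33 responses were tested as interaction contrasts. Gene positions, exon lengths and shared exon bases came from GENCODE M21 (GRCm38). Near copies (at least 200 bases at 95% identity, overlapping genes included) came from blastn 2.17.0. No 2 libraries of a group agreed within sampling noise (lowest chi-square per degree of freedom 6.70). DESeq2 1.42.0, limma 3.58.1 (voom), other scalings and filters, a replicate term, fits of the compared groups and leaving out each library were tried as alternatives, and the statistics were tested on simulated data. The 34 genes, the 74 further genes, the marker lists and the rule for named genes were chosen with earlier results of these data known. All members are named. Values per library are given for members called with a log2 change of at least 1 in size and, in every genotype, for Cd36, Cpt1a and Pparg, and for some further members chosen after their values were seen. Of the 74 further genes, up to 3 rises and 3 falls a comparison are named.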

Additional observations from a re-analysis of the deposited data

Results flagged for a closer look

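The genes below were singled out because the response to IL-33 differed between genotypes in a test of the difference itself, at an adjusted p under 0.05. Each value is the log2 response of the mutant-labelled cells minus that of the WT cells.

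Between ST2KO-labelled and WT cells, the difference was positive for Angptl4 (2.97), Pparg (1.17), Lipa (0.65), Pnpla2 (0.45), Plin2 (0.43), Slc27a1 (0.39) and Cpt1a (0.36). It was negative for Cd36 (-0.62), Acsl4 (-0.52), Echs1 (-0.50), Acsl1 (-0.48), Fabp5 (-0.48) and Etfa (-0.32). Among the further fatty acid genes that the text names, it was positive for Acot1 (1.43), Fabp3 (0.98) and Acot2 (0.91) and negative for Ppargc1b (-1.64), Abcd2 (-0.88) and Hilpda (-0.80).

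Between floxed-labelled and WT cells, the difference was 0.26 for Cpt1a and -0.85 for Abcd2. Genotype and sex cannot be told apart there.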

How the results depend on the processing

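Over the 11 comparisons, the members' log2 changes kept their sign wherever they were called, and 105 of the 133 calls of a member in a comparison were lost under none of the alternatives run. The other 28 were lost under at least 1, and 24 uncalled changes passed under at least 1; the causes were not tested. For ST2KO-labelled against WT cells without cytokine, 2 members were called, against 4 with no filter on low counts and 0 when only the groups compared were fitted. For the difference between the IL-33 responses of floxed-labelled and WT cells, 1 member was called, against 2 with DESeq2 and 2 with the replicate block. With no filter it was also 1, Cd36 in place of Cpt1a.

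Counts over all genes moved by more than 1.5 times in these cases. With no filter, IL-33 in ST2KO-labelled cells had 70 calls (0 with the filter), the floxed-labelled difference in IL-33 response 555 (176), and ST2KO-labelled against WT cells without cytokine 875 (196). With DESeq2 the last of these and the floxed-labelled difference had 438 and 393 calls, and with the replicate block 590 and 355.

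Leaving out each library in turn gave 13 to 17 members called for IL-33 in WT cells, 21 to 22 for IL-4, 23 to 26 for IL-33 against IL-4, 0 for IL-33 in ST2KO-labelled cells, 15 to 17 for IL-33 in floxed-labelled cells, 12 to 14 for the ST2KO-labelled and 0 to 1 for the floxed-labelled difference in IL-33 response. It gave 0 to 3 for ST2KO-labelled and 3 to 7 for floxed-labelled against WT cells without cytokine, and 14 to 17 and 8 to 10 with IL-33. Over all genes it gave 52 to 273 for the floxed-labelled difference, 54 to 208 for ST2KO-labelled against WT cells without cytokine, 658 to 1239 for floxed-labelled against WT cells without cytokine (1425 with all libraries) and 1004 to 1458 with IL-33 (1642).

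Upper-quartile scaling changed the split of members called for IL-33 in WT cells to 6 higher and 8 lower (10 and 8 with TMM), that of ST2KO-labelled against WT cells with IL-33 to 11 and 5 (9 and 7), and that of all genes for IL-33 in floxed-labelled cells to 2001 and 2985 (2471 and 2364). Size factors of the RLE kind gave 5 and 2 for floxed-labelled against WT cells without cytokine (5 and 1), with Acsl4 added.

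Over all genes, the correlation of the deviations from the group means of libraries with the same replicate number was -0.04 to 0.11 over 63 pairs, with a median of 0.0257, against -0.0130 for different numbers. Deviations within a group cancel out, so these medians are not independent of each other. The correlation was over 0.1 in 2 pairs, and some members were often highest in 1 number. The labels do not tie the numbers, and the main fit did not treat them as pairing the samples. Whether libraries of 1 number share something was not tested. With the replicate block no member lost its call and 9 calls were gained. These were Cd36 for the floxed-labelled difference (-0.59, adjusted p = 0.00605) and for floxed-labelled against WT cells without cytokine (0.36, 0.00471), and Lpl for IL-33 (0.18, 0.0166) and IL-4 (0.24, 0.00103) in WT cells and for ST2KO-labelled against WT cells with IL-33 (0.24, 0.00151). The others were Acsl3 for the ST2KO-labelled difference (-0.34, 0.0496) and for ST2KO-labelled against WT cells without cytokine (0.38, 0.0161), Cpt1a for IL-4 (0.09, 0.0489) and Ppard for floxed-labelled against WT cells with IL-33 (0.20, 0.0362). Counts per library limit Angptl4 most among the members, with 24 to 38 counts in WT cells with IL-33.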

Other observations

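Some members were highest in the library of 1 number in most groups. Pnpla2 was highest in the library numbered 3 in 7 of the 7 groups and Ppard in 6 of 7. Lpl was highest in the library numbered 2 in 6 of 7 groups and Cd36 in 5 of 7, the exceptions for Cd36 being floxed-labelled and WT cells with IL-33. No other member was highest in 1 number in more than 4 of the 7 groups. Nothing in the labels says what libraries with the same number share, and no test was made of these counts.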
